A study of Homo sapiens with 3 samples.

Results

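The genes described here encode the proteasome, with its constitutive subunits, its interferon-inducible subunits, its activators, its inhibitor and its assembly chaperones. Members were the genes with a symbol of PSMA, PSMB, PSMC, PSMD, PSME, PSMF or PSMG and a number, each read from the brightest array feature (transcript cluster) that the platform annotation gave that symbol alone. They made up 39 of the 14410 genes with a symbol of their own. RefSeq lists 48 protein-coding genes of this pattern. PSMB9, PSMD14, PSMG2 and PSMG4 were listed only in clusters with several symbols, no cluster was matched to PSMA8, PSMB11, PSMC5, PSMD7 or PSMD13, and these 9 genes were not analysed here. Of the 5 immune genes to be compared, 4 were therefore measured, PSMB8, PSMB10, PSME1 and PSME2, and the other 35 members are called constitutive below.

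The study hybridised total RNA of 3 established human cell lines to exon arrays, 1 for each line. The colon adenocarcinoma line HT-29, grown in McCoy's 5A with 10% fetal bovine serum, had received interferon gamma (IFN-γ) at 200 U/ml for 24 h. MCF10A is a non-tumorigenic mammary epithelial line and was kept in DMEM/F12 with 5% horse serum, EGF at 20 ng/ml, hydrocortisone at 500 ng/ml, cholera toxin at 100 ng/ml and insulin at 10 µg/ml. MDA-MB-436, a breast adenocarcinoma line, was kept in L-15 with 10% fetal bovine serum, and no IFN-γ is named in the labels of the mammary lines. An HT-29 array without the cytokine was not analysed here, and line, medium and cytokine cannot be told apart in any difference from HT-29. With 1 array per line there is no replicate spread and no test, and every difference below describes these 3 arrays.

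The proteasome degrades ubiquitin-tagged proteins in the cytosol and nucleus. Its core is a barrel of alpha and beta rings, in which the beta subunits PSMB5, PSMB6 and PSMB7 cut peptide bonds, and a regulatory particle of ATPases and ubiquitin-binding subunits unfolds and feeds the substrates. Interferon gamma is known to induce alternative catalytic subunits, PSMB8 in place of PSMB5, PSMB9 in place of PSMB6 and PSMB10 in place of PSMB7, and the activator PA28, built from PSME1 and PSME2. Proteasomes that carry them are known for making peptides that fit class I molecules.

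Because all 4 immune genes were past 2-fold above MCF10A in HT-29, their start regions are shown first, beside that of PSMB5, the subunit that PSMB8 replaces. Each run is 300 bases of GRCh38.p14 from RefSeq, 250 before the start of transcription and 50 from it on, 5′ to 3′ on the strand of the gene. The windows lie at chr6:32843998-32844297 (minus strand) for PSMB8, chr16:67936801-67937100 (minus) for PSMB10, chr14:24135944-24136243 (plus) for PSME1, chr14:24146561-24146860 (minus) for PSME2 and chr14:23034851-23035150 (minus) for PSMB5. Capitals mark matches, on either strand, to the interferon-stimulated response element (ISRE, letters GAAANNGAAA) and to the gamma-activated site (GAS, letters TTCNNNGAA), which reads the same on both strands.
PSMB8: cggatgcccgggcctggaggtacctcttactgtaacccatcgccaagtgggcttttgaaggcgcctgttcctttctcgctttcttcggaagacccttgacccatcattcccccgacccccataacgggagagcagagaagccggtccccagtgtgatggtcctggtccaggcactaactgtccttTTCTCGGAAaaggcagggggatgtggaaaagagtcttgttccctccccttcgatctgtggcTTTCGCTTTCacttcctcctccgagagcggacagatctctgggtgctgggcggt
PSMB10: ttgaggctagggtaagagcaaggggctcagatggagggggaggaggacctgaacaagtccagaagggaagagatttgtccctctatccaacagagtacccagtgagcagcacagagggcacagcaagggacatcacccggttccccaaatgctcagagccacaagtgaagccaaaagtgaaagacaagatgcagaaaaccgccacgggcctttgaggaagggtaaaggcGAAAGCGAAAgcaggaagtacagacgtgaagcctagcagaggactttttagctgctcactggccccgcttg
PSME1: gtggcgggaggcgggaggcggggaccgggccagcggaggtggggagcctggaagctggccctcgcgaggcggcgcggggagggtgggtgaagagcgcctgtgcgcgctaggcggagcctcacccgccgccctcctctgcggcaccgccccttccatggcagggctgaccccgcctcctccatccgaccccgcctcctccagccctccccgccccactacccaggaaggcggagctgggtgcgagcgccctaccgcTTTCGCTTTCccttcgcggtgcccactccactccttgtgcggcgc
PSME2: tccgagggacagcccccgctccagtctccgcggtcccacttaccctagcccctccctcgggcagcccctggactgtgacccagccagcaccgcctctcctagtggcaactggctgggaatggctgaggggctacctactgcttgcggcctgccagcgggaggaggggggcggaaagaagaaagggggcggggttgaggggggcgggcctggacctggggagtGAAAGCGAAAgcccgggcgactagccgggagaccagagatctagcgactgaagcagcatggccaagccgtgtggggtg
PSMB5: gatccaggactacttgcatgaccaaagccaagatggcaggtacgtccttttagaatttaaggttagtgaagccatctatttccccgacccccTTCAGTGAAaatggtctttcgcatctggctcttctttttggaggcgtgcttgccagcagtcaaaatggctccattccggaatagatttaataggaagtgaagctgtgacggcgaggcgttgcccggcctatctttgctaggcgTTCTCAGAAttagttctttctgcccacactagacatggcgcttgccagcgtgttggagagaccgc

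The ISRE letters were found in a window of all 4 measured immune genes, as GAAAGCGAAA on the gene's strand in PSMB10 and PSME2 and as its reverse complement TTTCGCTTTC in PSMB8 and PSME1. Counting the start base as 0, the match ran from -4 to 5 in PSMB8, from -21 to -12 in PSMB10, from 5 to 14 in PSME1 and from -28 to -19 in PSME2. PSMB8 has another window, at another start, without a match, and neither of the 2 windows of PSMB5 held the letters. ISRE and GAS matches did not overlap in the windows shown. Of 35116 promoter windows of this length in the table, 3.57% held the letters, as did 2 of the 35 windows of constitutive members, 1 each of PSMA4 and PSMB4. The GAS letters were found in 1 of 5 immune windows, that of PSMB8, in 6 of 35 constitutive windows and in 7.66% of all windows. PSMB5 holds them at 2 places in the window shown. For HT-29 minus MCF10A, the constitutive genes with GAS letters had log2 differences of -1.15 (PSMB5), -0.71 (PSMD2), -0.06 (PSME3), 0.02 (PSMD3), 0.15 (PSMC4) and 0.16 (PSMA2). Those with ISRE letters had 0.88 (PSMA4) and -0.20 (PSMB4). A link between letters and differences was not tested. Another motif, the antioxidant response element (ARE, letters TGACNNNGC, both strands), through which the transcription factor NFE2L1 is known to act on proteasome genes, was found in 10 of 35 constitutive windows, in 2 of 5 immune windows and in 13.3% of all windows. RefSeq windows were matched for 33 of the 39 members, and PSMA7, PSMB1, PSMB6, PSMB7, PSMD4 and PSMG3 had none. A match describes letters and does not show a site in use.

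Intensities are on the linear scale of the deposited values, and values of a gene given without line names run in the order HT-29, MCF10A, MDA-MB-436. In these bulk samples, more cells that express a gene and more RNA per cell cannot be told apart. Background was set at 29.9, a value that 95% of the intensities of 228 olfactory receptor genes did not exceed; their highest value was 101. All 39 members lay above background in every array, and 37 lay above 101 in every array; the exceptions were PSMB8 and PSMB10. Probes differ between genes, so levels are compared between lines for a gene and not between genes. Marker genes were summed per line, and some sums rested on few genes. The 7 intestinal markers summed to 4941 in HT-29, against 480 for MCF10A and 179 for MDA-MB-436. All 7 were highest in HT-29, but LGALS4 at 2372 and EPCAM at 2107 carried most of that sum. CDX2 differed little, at 74.8, 53.2 and 51.9. The 3 basal mammary markers summed to 185, 6862 and 50, and each was highest in MCF10A. The 4 mesenchymal markers summed to 72, 2045 and 3708. VIM was most of the MCF10A sum, at 1933 beside 2038 in MDA-MB-436, and did not separate the mammary lines. CDH2, MMP2 and ZEB1 were highest in MDA-MB-436. Leukocytes carry the immune subunits without added interferon. Of 16 leukocyte markers 14 were measured, and they summed to 318, 363 and 334, with 3, 2 and 4 of them above background. Those above background in some line were MS4A1 at 68.0, 16.6 and 30.3, CD14 at 38.9, 156 and 86.5, NKG7 at 35.1, 38.0 and 32.1, and CD22 at 16.9, 11.9 and 33.4. MS4A1 was thus highest in HT-29 and CD14 in MCF10A. The pan-leukocyte gene PTPRC was between 3.05 and 4.16, far below background. Endothelial markers summed to 55, 68 and 70 and fibroblast markers to 70, 64 and 60.

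HT-29 with IFN-γ had far more signal for the immune catalytic subunits than either mammary line. PSMB8, which takes the place of PSMB5, had an intensity of 619 in HT-29, against 78.8 for MCF10A and 117 for MDA-MB-436. PSMB10, which takes the place of PSMB7, stood at 546, 65.4 and 81.6. Both mammary lines were thus low for both genes and close to the highest olfactory receptor value. PSMB8 was 7.86-fold above MCF10A and 5.29-fold above MDA-MB-436, and PSMB10 was 8.35-fold and 6.70-fold above them. Among all 14410 genes, these differences ranked 344 and 464 from the top for PSMB8 and 323 and 356 for PSMB10.

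The PA28 activator genes were spaced in another way across the lines. PSME1, the alpha subunit of PA28, had an intensity of 1507 in HT-29, against 621 for MCF10A and 1224 for MDA-MB-436. PSME2, the beta subunit, was at 2475, 735 and 1563. Both were lowest in MCF10A, with MDA-MB-436 nearer to HT-29 than to MCF10A on the log2 scale. HT-29 was 2.43-fold above MCF10A for PSME1 and 3.37-fold for PSME2, whereas it was 1.23-fold and 1.58-fold above MDA-MB-436. The difference from MDA-MB-436 depended on the scaling: on the log2 scale it went from 0.30 to -0.03 for PSME1 after quantile normalization, a turned direction, and from 0.66 to 0.34 for PSME2.

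**Figure D1:**
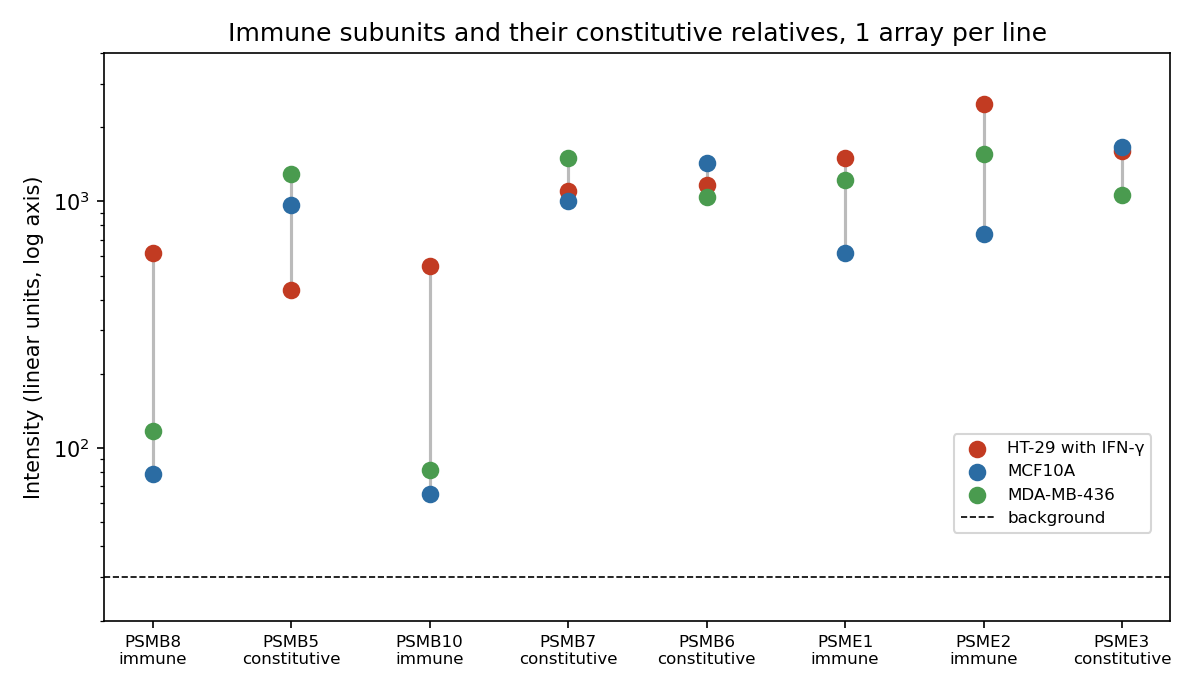
Intensity (log axis) of the 4 measured immune genes and of the constitutive genes PSMB5, PSMB7, PSMB6 and PSME3, with 1 point per line and the background of 29.9 as a dashed line. PSMB8 and PSMB10 are at 619 and 546 in HT-29 and between 65.4 and 117 in the mammary lines, PSMB5 is lowest in HT-29 at 438, and PSME1 and PSME2 are lowest in MCF10A.

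None of the constitutive catalytic subunits had HT-29 far above the other lines. PSMB5, which carries the chymotrypsin-like activity, had an intensity of 438 in HT-29, against 971 for MCF10A and 1291 for MDA-MB-436, so that HT-29 was 2.21-fold below MCF10A and 2.95-fold below MDA-MB-436. PSMB6, with the caspase-like activity, was at 1166, 1435 and 1039, and PSMB7, with the trypsin-like activity, at 1104, 1000 and 1498. The spread of PSMB5 over the lines, 2.95-fold, was the widest among the constitutive members, and those of PSMB6 and PSMB7 were 1.38-fold and 1.50-fold. Set against its counterpart, the difference of PSMB8 between HT-29 and MCF10A exceeded that of PSMB5 by 4.12 on the log2 scale, a ratio of ratios of 17.4, and the excess over MDA-MB-436 was 3.96. For PSMB10 and PSMB7 the excess was 2.92 over MCF10A and 3.18 over MDA-MB-436. Between the mammary lines these excesses were 0.16 for PSMB8 and -0.27 for PSMB10 (MDA-MB-436 minus MCF10A).

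PSME3 encodes PA28 gamma, the nuclear relative of PSME1 and PSME2, and had an intensity of 1595 in HT-29, against 1663 for MCF10A and 1062 for MDA-MB-436. Its order was unlike that of its relatives, with MDA-MB-436 lowest. The excess of PSME1 over PSME3 was 1.34 on the log2 scale for HT-29 against MCF10A and 1.63 for MDA-MB-436 against MCF10A, and that of PSME2 was 1.81 and 1.73. With HT-29 set against MDA-MB-436 it was -0.29 for PSME1 and 0.08 for PSME2. PSME4, which encodes the activator PA200, stood at 478, 641 and 517 in HT-29, MCF10A and MDA-MB-436.

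In HT-29 with IFN-γ against MCF10A, all 4 immune members were at least 2-fold higher, where 14.4% of the 10174 genes above background were, and 2 of them, PSMB8 and PSMB10, were at least 4-fold higher, where 6.14% were. None of the 35 constitutive members was at least 2-fold higher, and 2 were at least 2-fold lower, PSMB5 and PSMD6, where 14.3% of genes were. In either direction that is 2 of 35, against 28.7% of genes above background and 27.2% of the 5221 genes with a mean intensity in the range of the constitutive members, 189 to 2498. The median log2 difference was 2.36 for the immune and 0.01 for the constitutive members, 0.11 over all genes and 0.01 over those above background. Constitutive members ran from -1.15 (PSMB5) to 0.88 (PSMA4), so the lowest immune value, 1.28 for PSME1, lay above all of them.

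Against MDA-MB-436, the immune genes separated into pairs. PSMB8 and PSMB10 were 4-fold or more above it in HT-29, where 5.76% of the 10531 genes above background were, and lay above all 35 constitutive members. PSME1 and PSME2 differed by 0.30 and 0.66 on the log2 scale (-0.03 and 0.34 after quantile normalization), under 2-fold, and 15 and 8 constitutive members had larger differences. Of the constitutive members, 4 were higher by 2-fold or more in HT-29 (15.8% of genes), namely PSMA1, PSMA4, PSMA5 and PSMD12, and 2 were at least 2-fold lower (15.0% of genes), PSMB5 and PSMD6. The count of 4 was 2 after quantile normalization and after centring on the constitutive members, with PSMA1 and PSMA5 lost each time, and 5 after median centring, with PSMB3 gained. The 6 of 35 past 2-fold in the deposited values stand beside 30.8% of genes above background and 27.4% of genes in the same intensity range. The constitutive median was 0.17, equal to the 0.17 of genes in that range, and 23 of 35 members were higher in HT-29; after quantile normalization the median was -0.08 and 16 were higher.

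Between the mammary lines, MDA-MB-436 was above MCF10A for all 4 immune members, and the PA28 genes had the larger differences. PSME2 was 2.13-fold and PSME1 1.97-fold higher, above every constitutive member, while PSMB8 was 1.49-fold and PSMB10 1.25-fold higher, below 1 and 4 of the constitutive members. In MCF10A and MDA-MB-436, PSMB8 (78.8 and 117) and PSMB10 (65.4 and 81.6) lay near the highest olfactory receptor value. The differences of PSMB8 and PSMB10 here thus depend on dim signals. The immune median was 0.78. With a limit of 2-fold, 1 of the 4 was called, PSME2, where 12.2% of the 10308 genes above background were higher; median centring took PSME2 below the limit, and quantile normalization put PSME1 past it as well. Of the constitutive members, PSMC6 at 2.28-fold and PSMD12 at 2.03-fold were at least 2-fold lower, where 12.2% of genes were lower. PSMD12 was under 2-fold after quantile normalization, both were after centring on the constitutive members, and PSMB1 joined them after median centring. In either direction the share was 24.5% of genes and 20.6% of those in the same intensity range. The constitutive median was -0.33 with 24 of 35 members lower in MDA-MB-436, next to -0.23 for genes in that intensity range, and after quantile normalization it was -0.06 with 20 lower.

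**Figure D2:**
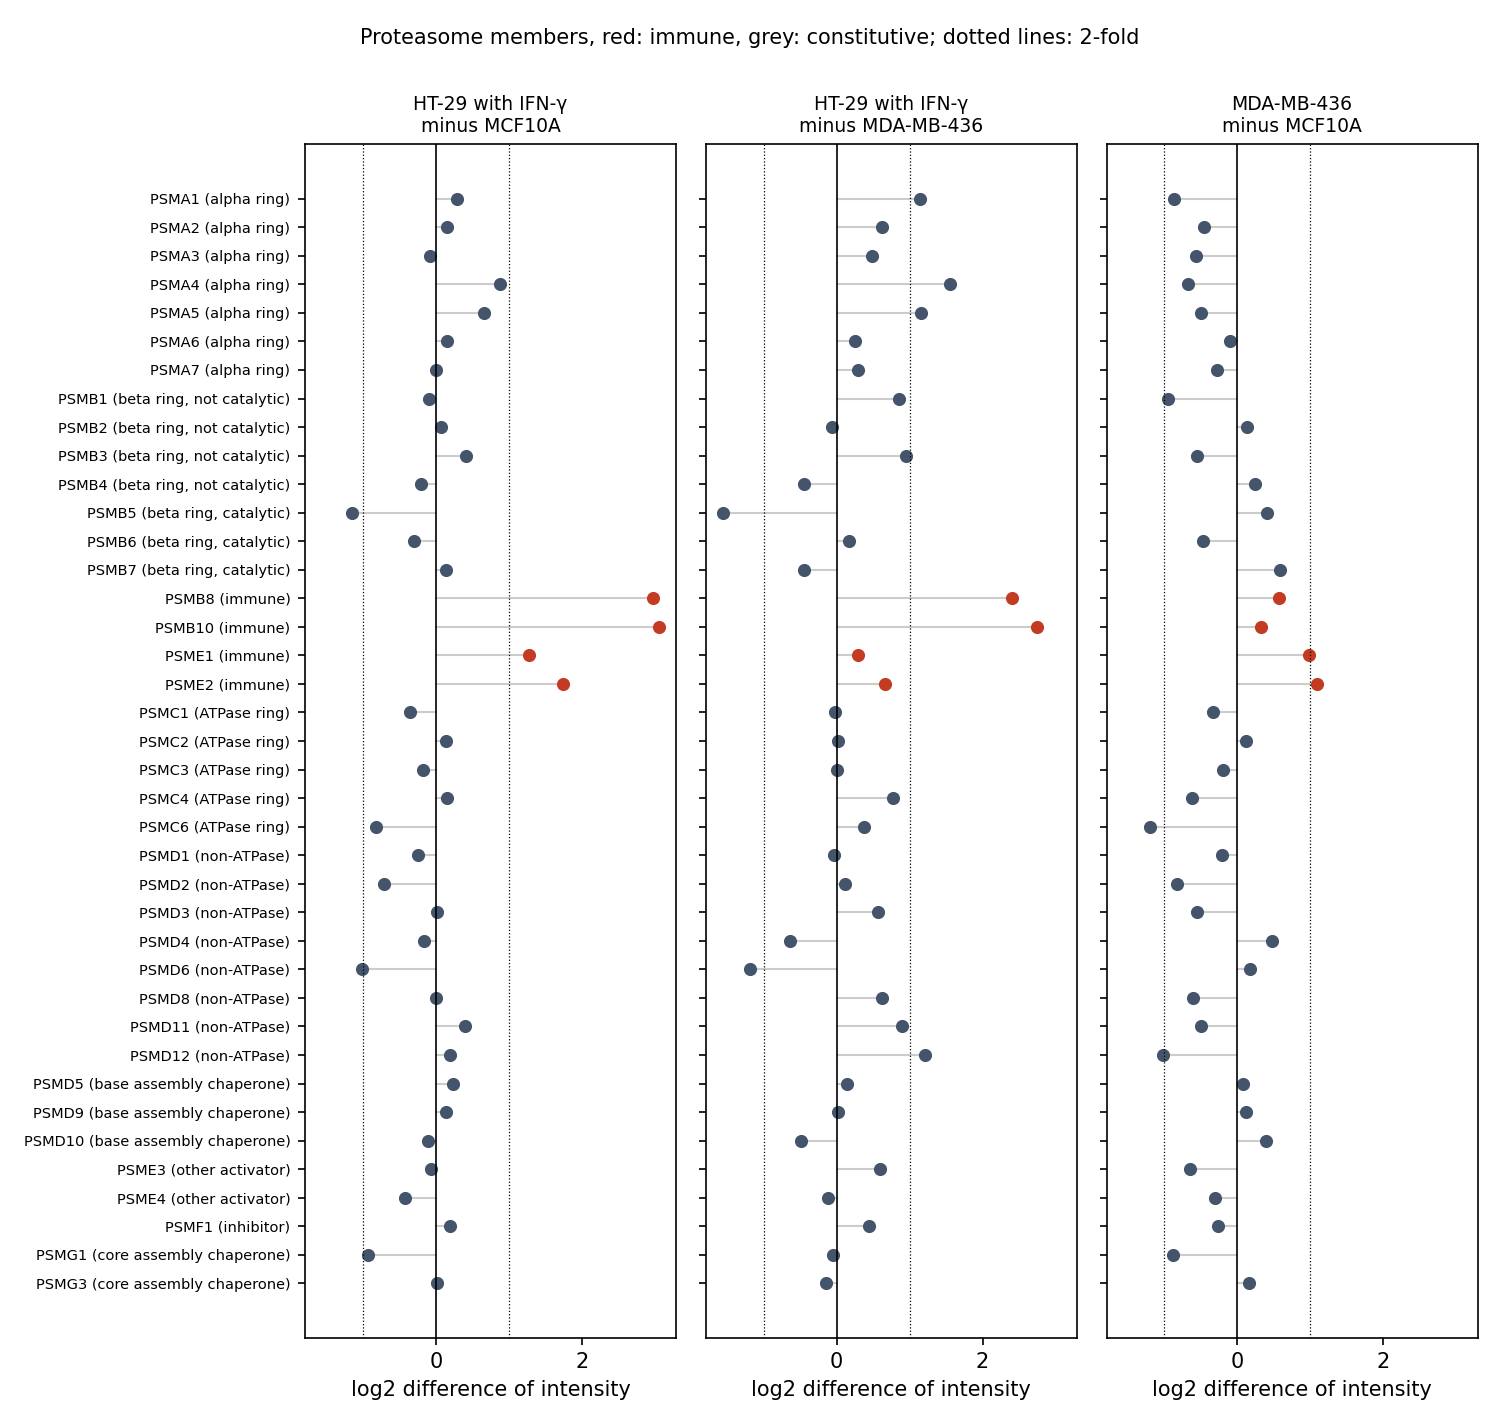
Log2 difference of intensity for all 39 members in the 3 comparisons, in order of role, with immune members in red, constitutive members in grey and dotted lines at 2-fold. PSMB8 and PSMB10 stand out in both comparisons with HT-29, PSME1 and PSME2 in both comparisons with MCF10A, and PSMB5 is the lowest member in both comparisons with HT-29.

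**Figure D3:**
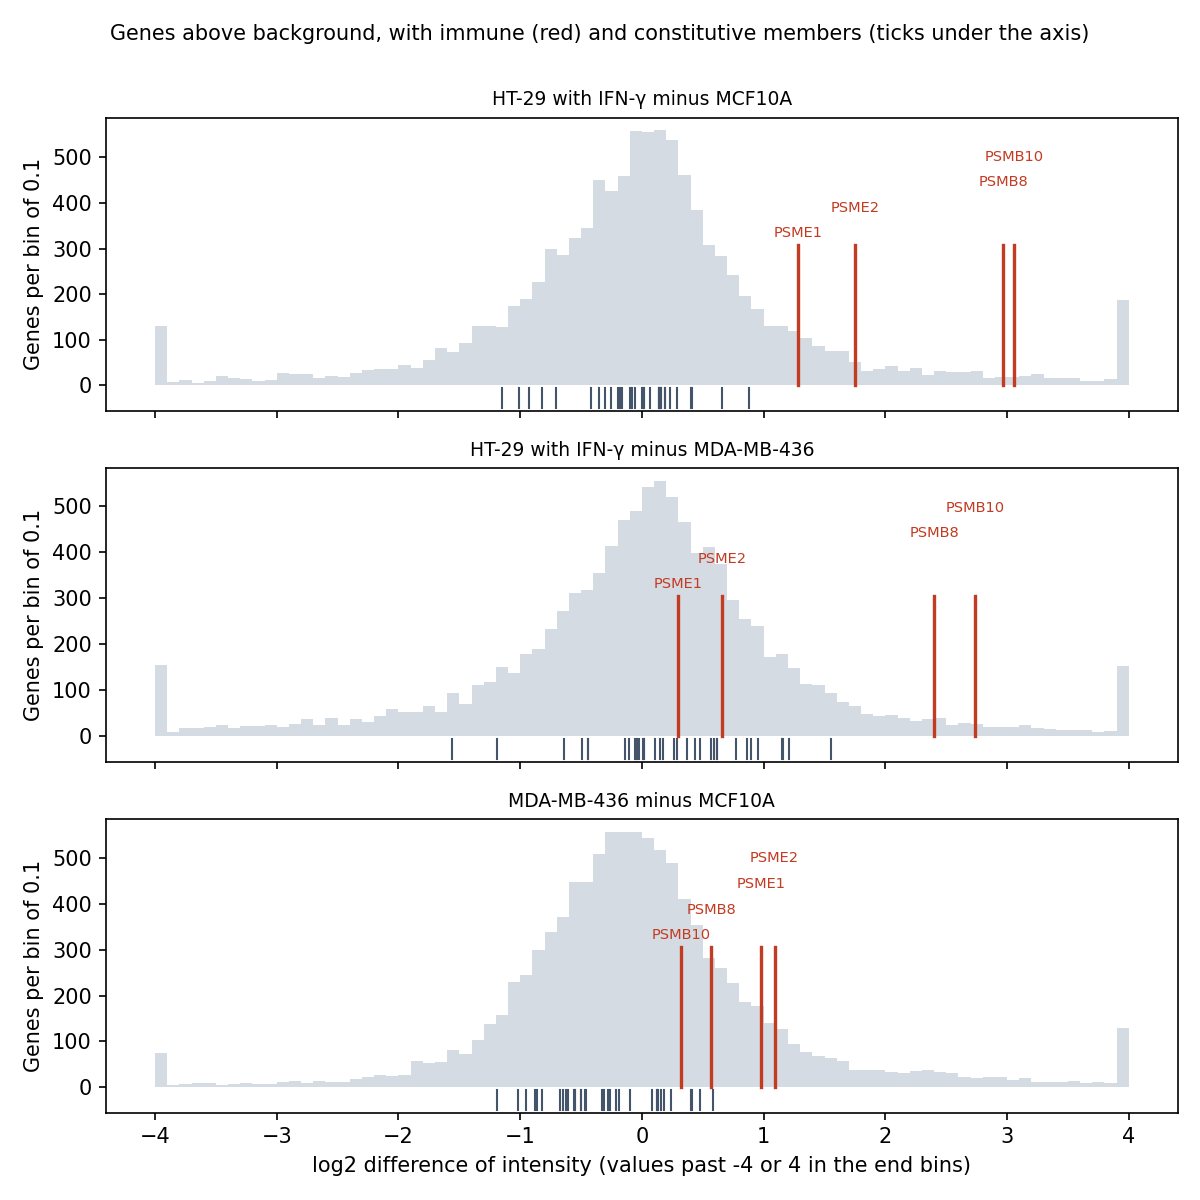
Histograms of the log2 difference of all genes above background (bins of 0.1, values past the axis in the end bins) with the 4 immune members as red lines and the 35 constitutive members as ticks under the axis. Constitutive ticks lie between -1.56 and 1.55 in all 3 panels, and the immune lines lie outside the range of the ticks for 4 genes in the top panel and for PSMB8 and PSMB10 in the middle panel, and for PSME1 and PSME2 in the bottom panel.

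The alpha ring forms the gate of the core particle, and in the deposited values 6 of its 7 genes were highest in HT-29. All 7 were lowest in MDA-MB-436, though not PSMA6 after quantile normalization or centring on the constitutive members, and 6 of 7 were higher in HT-29 than in MCF10A, the exception being PSMA3 at 424 in HT-29, against 449 for MCF10A and 305 for MDA-MB-436. PSMA4 had the widest spread, at 2353, 1281 and 805. PSMA5 was at 677, 428 and 302 and PSMA1 at 1916, 1565 and 861. These 3 genes had a level at least 2-fold higher in HT-29 than in MDA-MB-436, by 2.92-fold for PSMA4, 2.24-fold for PSMA5 and 2.22-fold for PSMA1, and under 2-fold from MCF10A. PSMA1 and PSMA5 were under 2-fold after quantile normalization. The remaining PSMA2, PSMA6 and PSMA7 spread by 1.54-fold, 1.19-fold and 1.22-fold over the lines. PSMA7 was highest in HT-29 by a small margin, at 701 against 697 for MCF10A. The ring's median log2 difference was 0.16 from MCF10A and 0.62 from MDA-MB-436 for HT-29, and -0.50 for MDA-MB-436 minus MCF10A. After quantile normalization 6 of 7 genes were still higher in HT-29 than in MDA-MB-436 and 6 of 7 lower in MDA-MB-436 relative to MCF10A. Many other genes were also lower in MDA-MB-436 than in either other line in pairwise counts of the deposited values. Among the 5221 genes in the intensity range of the constitutive members, HT-29 exceeded MDA-MB-436 for 3065. HT-29 exceeded MCF10A for 2484 and was lower for 2737, so the alpha ring direction was not the commoner one there. MDA-MB-436 lay below MCF10A for 3266 of the 5221.

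Of the beta subunits without catalytic activity, PSMB2 was close to level, at 2505 in HT-29, against 2383 for MCF10A and 2606 for MDA-MB-436, and its spread of 1.09-fold was the narrowest of all constitutive members. PSMB1, at 762, 814 and 421, and PSMB3, at 1792, 1352 and 926, were lowest in MDA-MB-436. PSMB4 ran the other way, from 1491 in HT-29 over 1711 to 2025 in MDA-MB-436. The 14 measured constitutive genes of the core particle thus did not share an order across the lines.

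The ATPases PSMC1 to PSMC6 form the ring that unfolds substrates, and 5 of the 6 were measured. PSMC6 was at 234 in HT-29, against 413 for MCF10A and 181 for MDA-MB-436, highest in MCF10A. PSMC4 was at 2148, 1939 and 1260. PSMC2 and PSMC3 spread by 1.10-fold and 1.14-fold and are nearly level over the lines. For PSMC1 the brightest cluster stood among clusters of chromosome 3 in the platform's numbering (10 of 10 neighbours), while the gene lies on chromosome 14; this was true of no other member's brightest cluster. Its dimmer cluster, with 10 of 10 neighbours on chromosome 14, gave log2 differences of -0.42, -0.01 and -0.41 for HT-29 minus MCF10A, HT-29 minus MDA-MB-436 and MDA-MB-436 minus MCF10A, against -0.35, -0.02 and -0.33 for the brightest.

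Among the 8 measured non-ATPase subunits of the regulatory particle, PSMD6 and PSMD12, both of the lid, had the widest spreads and opposite orders. PSMD6 was at 183 in HT-29, against 370 for MCF10A and 418 for MDA-MB-436, and HT-29 was 2.02-fold and 2.28-fold lower; the first of these was under 2-fold after quantile normalization. PSMD12 was at 457, 400 and 197, 2.32-fold higher in HT-29 than in MDA-MB-436. The lid genes PSMD3, PSMD8 and PSMD11 were lowest in MDA-MB-436, with spreads of 1.49-fold, 1.54-fold and 1.86-fold. PSMD2, a scaffold of the base, was highest in MCF10A at 1398, against 855 in HT-29 and 795 in MDA-MB-436, and its partner PSMD1 was at 909, 1083 and 936. PSMD4, a ubiquitin receptor, was highest in MDA-MB-436 at 979, against 630 in HT-29 and 704 in MCF10A.

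The chaperones that assemble the particle differed little between lines, apart from PSMG1. PSMG1, which pairs with PSMG2 to build the alpha ring, was at 244 in HT-29, against 466 for MCF10A and 253 for MDA-MB-436. It was highest in MCF10A, 1.91-fold above HT-29 and 1.84-fold above MDA-MB-436. PSMG3 was at 639, 629 and 704. The base chaperones PSMD5 and PSMD9 spread by 1.17-fold and 1.10-fold and PSMD10, which encodes gankyrin, by 1.41-fold with MDA-MB-436 highest. PSMF1, which encodes the inhibitor PI31, was at 1204, 1058 and 886.

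Over the 35 constitutive members the median spread, highest over lowest line, was 1.50-fold, and 28 stayed under 2-fold. In the deposited values HT-29 was the highest line for 16 of them, MCF10A for 11 and MDA-MB-436 for 8, and MDA-MB-436 was the lowest for 20. Neither the spread over the lines nor the highest and lowest lines were counted for genes outside the proteasome. These counts therefore have no share of all genes beside them. Of the 5221 genes in the intensity range of the constitutive members, HT-29 exceeded MDA-MB-436 for 3065 and MCF10A for 2484. MDA-MB-436 lay below MCF10A for 3266 of the 5221, so part of this order was shared with other genes. For the immune members HT-29 was highest in 4 of 4, though not for PSME1 after quantile normalization (-0.03 from MDA-MB-436), and MCF10A was lowest in 4 of 4, with spreads from 2.43-fold for PSME1 to 8.35-fold for PSMB10.

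The gene neighbourhood of the immune members was read from the order of protein-coding genes in RefSeq. PSMB8 lies on chromosome 6 between TAP2 and TAP1, which encode the transporter that carries peptides into the endoplasmic reticulum. The log2 difference between HT-29 and MCF10A was 2.12 for TAP2, 2.97 for PSMB8 and 3.25 for TAP1, and between MDA-MB-436 and MCF10A it was -0.25, 0.57 and 0.29. PSME1 and PSME2 lie on chromosome 14 with EMC9 between them and RNF31 and IRF9 after PSME2. EMC9, a gene of the membrane protein insertion complex, was at 113 in HT-29, against 105 for MCF10A and 211 for MDA-MB-436. Unlike its PA28 neighbours, it was close to the MCF10A value in HT-29. For MDA-MB-436 minus MCF10A it was like them, at 1.01, beside 0.98 for PSME1 and 1.09 for PSME2. PCK2, NRL, RNF31 (0.77) and REC8 (0.58) were also higher there. DCAF11 (0.27) and FITM1 (0.04) differed less, and IPO4 (-0.03) and CPNE6 (-0.19, below background) were slightly lower. PCK2 was highest in HT-29, at 1150, against 143 for MCF10A and 250 for MDA-MB-436. IRF9, which encodes the DNA-binding part of an interferon-activated transcription complex, was at 1345 in HT-29, against 80.5 for MCF10A and 916 for MDA-MB-436. Like PSME1 and PSME2, it had the MDA-MB-436 value nearer to HT-29 than to MCF10A. PSMB10 lies on chromosome 16, and 6 of the 10 genes around it were measured. Between HT-29 and MCF10A these differed by -0.74 (NUTF2), 0.32 (EDC4), 0.69 (NRN1L), 1.03 (CTRL), 0.44 (DPEP3) and 0.16 (DPEP2), against 3.06 for PSMB10; NRN1L, DPEP3 and DPEP2 were below or near background.

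Related gene lists place the members beside the genes they work with. Of 17 measured proteasome-associated genes of 18 listed, 1 was at least 2-fold higher in HT-29 than in MCF10A (14.4% of genes above background) and none lower (14.3% of genes), with a median of 0.30. None passed 2-fold from MDA-MB-436 (30.8% of genes in either direction, median 0.31), and 1 was lower in MDA-MB-436 relative to MCF10A (12.2% of genes, median -0.14). ZFAND5, a proteasome-binding zinc finger gene, was the higher one, at 1064 in HT-29, against 323 for MCF10A and 562 for MDA-MB-436. PAAF1, which binds the ATPase ring, was the lower one, at 166 in MCF10A and 67.5 in MDA-MB-436, the latter under the highest olfactory receptor value. POMP, the maturation factor of the core particle, was at 1359, 1191 and 778, and ADRM1, a ubiquitin receptor, at 2636, 1624 and 1469. The constitutive members had medians of 0.01, 0.17 and -0.33 in these comparisons.

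Of 8 measured genes of the NFE2L1 list, which covers this transcription factor of proteasome genes, its processing enzymes and its partners, 2 (MAFG and MAFF) were 2-fold or more above MCF10A in HT-29 (14.4% of genes) and 3 (these and NFE2L1) above MDA-MB-436 (15.8% of genes), with none lower in either. NFE2L1 itself was at 1315 in HT-29, against 671 for MCF10A and 492 for MDA-MB-436, 1.96-fold and 2.68-fold higher in HT-29. MAFG, a small partner protein gene, was at 1217, 265 and 530. VCP, the segregase that extracts ubiquitin-tagged proteins, was at 1031, 1458 and 1266, highest in MCF10A. Between MDA-MB-436 and MCF10A 1 gene, MAFG, passed 2-fold, where 24.5% of genes did.

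The class I presentation list, which holds genes that use the peptides of the proteasome, counted 9 of 12 measured genes past 2-fold above MCF10A in HT-29 (14.4% of genes above background), 7 above MDA-MB-436 (15.8% of genes), and 3 in MDA-MB-436 above MCF10A (12.2% of genes), with none lower in any comparison. Its medians were 2.46, 1.38 and 0.48, beside 2.36, 1.53 and 0.78 for the immune proteasome genes. B2M, which encodes the light chain of class I molecules, was at 2485 in HT-29, against 527 for MCF10A and 1444 for MDA-MB-436 and, like PSME1 and PSME2, well above MCF10A in both other lines. TAP1 was at 3145, 331 and 406. Its log2 difference for MDA-MB-436 minus MCF10A was 0.29, beside 0.57 for PSMB8 and 0.32 for PSMB10. In the interferon gamma signalling list 6 of 10 measured genes passed 2-fold above MCF10A in HT-29, 5 above MDA-MB-436, and 6 in MDA-MB-436 above MCF10A, beside the same shares over all genes, and none was lower. Some of these genes were dim. IRF8 at 263, 5.88 and 30.6 and SOCS1 at 211, 8.29 and 40.7 lay under the highest olfactory receptor value, 101, in both mammary lines. SOCS3, at 57.6, 22.2 and 61.9, did so in every line. IRF8, SOCS1 and SOCS3 were below background in MCF10A. IRF1, a transcription factor gene induced by interferon gamma, was at 3961, 94.9 and 326.

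Of 6 measured peptidases that trim peptides after the proteasome, 1 was at least 2-fold higher in HT-29 than in MCF10A (14.4% of genes) and 2 were lower (14.3% of genes). LAP3, which encodes leucine aminopeptidase, was at 2314 in HT-29, against 445 for MCF10A and 813 for MDA-MB-436. BLMH, which encodes bleomycin hydrolase, was at 27.4, 294 and 160, under background in HT-29. The chaperonin CCT, another constitutive complex of many subunits, had 1 of 7 measured genes past 2-fold in HT-29 against MCF10A (28.7% of genes), CCT8 at 140, 283 and 272, and none in the other comparisons, with medians of -0.44, -0.07 and -0.15. Of the ubiquitin list, UBB and UBA1 were measured and none passed 2-fold.

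**Figure D4:**
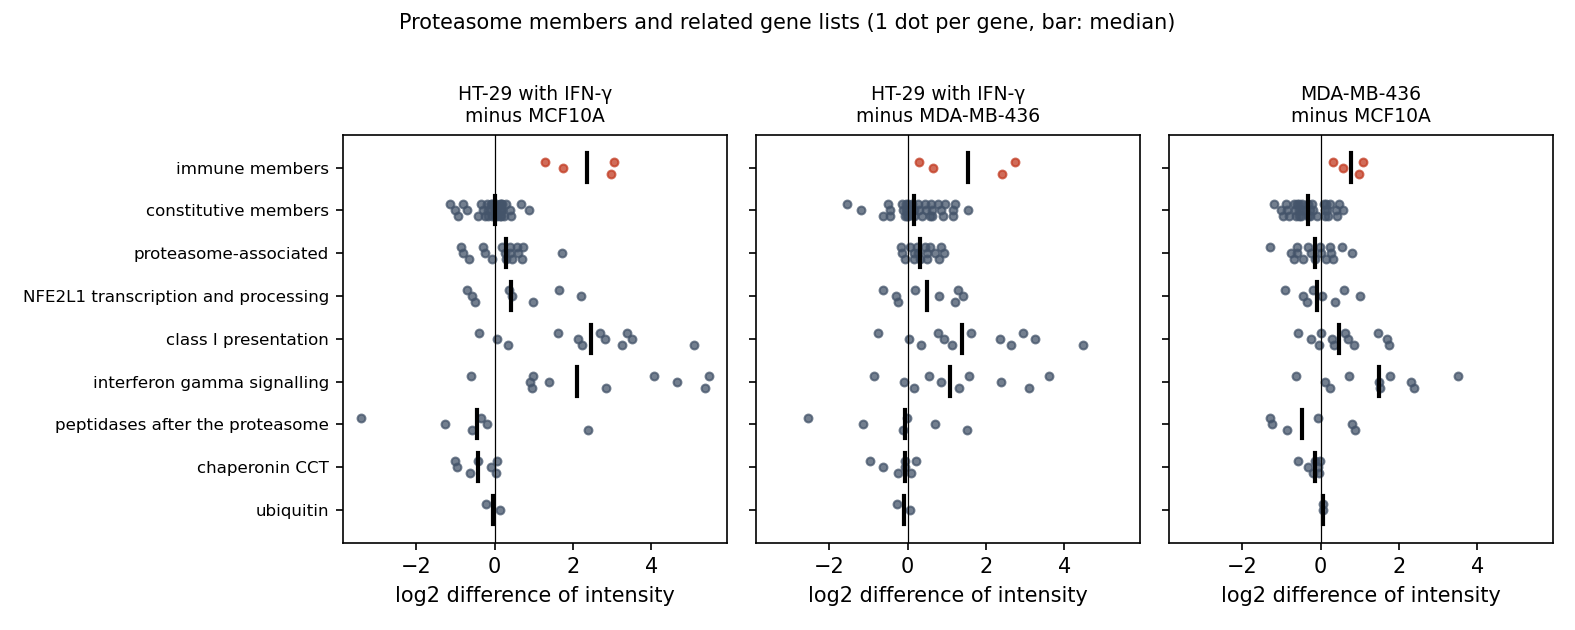
Log2 difference of intensity for the immune members (red), the constitutive members and the related lists (grey), with 1 dot per gene and a bar at the median, in the 3 comparisons. The immune members have medians of 2.36, 1.53 and 0.78, beside those of the class I list at 2.46, 1.38 and 0.48, while the constitutive members have medians of 0.01, 0.17 and -0.33.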

How the data were processed

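For every transcript cluster (18708 in all) the authors deposited an intensity per array, linear and not log2 by its range. How the intensities were summarised, background-corrected or normalized is not given in the sources used here; hg19 is the build in the submitters' processing notes. If the arrays were not scaled to each other, small differences can come from that. Cluster names came from the platform's table, and RefSeq of GRCh38.p14 supplied current symbols by identifier (14705 of 14733 single-symbol clusters matched); 2875 clusters had several symbols and 1100 were unnamed here. Related genes can share probe signal.

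Differences were taken between log2 values. A gene was counted at 2-fold or more, or 4-fold where stated, with the brighter value above background, which was set from olfactory receptor genes. Named genes were all members and, per related list, up to 4 of those with the largest differences, together with some genes of known role that were chosen after their values were seen. Members and lists were chosen with earlier results of these data known, and no list was tested. Alternatives were quantile normalization, median centring, centring on the constitutive members, a background floor, a background at their 99th percentile, no filter, the median over clusters and 4-fold. The counting step was tested on simulated data. Versions were matplotlib 3.10.9, pandas 2.3.3, numpy 2.4.6 and Python 3.11.15.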

Additional observations from a re-analysis of the deposited data

How the results depend on the processing

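In all 7 alternatives other than the fold, PSMB8 and PSMB10 stayed at least 2-fold higher in HT-29 than in either mammary line, and PSMB5 at least 2-fold lower. No called member changed sign, while PSME1, not called, went from 0.30 to -0.03 for HT-29 minus MDA-MB-436 under quantile normalization; of 819 member values under these alternatives 96 moved by over 0.25 on the log2 scale, all under quantile normalization (57) or centring on the constitutive members (39). For MDA-MB-436 minus MCF10A, the constitutive median was -0.06 under quantile normalization and -0.06 under centring on the constitutive members, against -0.33, and the immune median was 1.05 under that centring, against 0.78. The count of immune members at least 2-fold higher there was 2 under quantile normalization, 2 under that centring and 0 under median centring, against 1, and the count of constitutive members past 2-fold was 1 under quantile normalization and 0 under that centring, against 2. For HT-29 minus MCF10A, constitutive members past 2-fold numbered 1 under quantile normalization and 1 under that centring, against 2, with PSMD6 lost each time. A limit of 4-fold in place of 2-fold left 2 immune members of 4 for HT-29 minus MCF10A and 0 of 1 for MDA-MB-436 minus MCF10A, and 0 constitutive members in all 3 comparisons. By construction a stricter limit can only keep or lower a count. Centring on the constitutive members scales each array by their own median, so it holds their median difference near 0 by construction. The widest constitutive log2 differences were -1.56 and 1.55. Median centring moved the constitutive median of MDA-MB-436 minus MCF10A to -0.44. The number of arrays limits the precision, and in the mammary lines PSMB8 and PSMB10 lay near the highest olfactory receptor value, so their folds depend on dim signals. No paired analysis was possible because each line had 1 array and no replicate numbers.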
